A study of Arabidopsis thaliana with 6 samples.

Results

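The plastid genome of Arabidopsis encodes subunits of both photosystems and of the cytochrome b6f complex, and factors of photosystem assembly. Of these genes, 9 are described here. They cover photosystem II (psbA, psbE and psbF) and its assembly (psbN), the cytochrome b6f complex (petD, petG and petL), and photosystem I (psaA) and its assembly (ycf3). They were chosen by name, with earlier results of these arrays known, and each was read from 1 probe set annotated to that gene alone. They make up 9 of 13356 genes measured by such probe sets, and 9 of the 69 plastid-encoded ones. The study compared 3 arrays of seedlings with the empty vector pCAMBIA 1302 and 3 arrays of seedlings carrying 35S-PaWRKY1, in which the cauliflower mosaic virus 35S promoter, active in most tissues, drives the WRKY transcription factor PaWRKY1. All seedlings were 7 days old after 2 days of vernalization, grown on full-strength MS medium without further treatment named, and harvested as shoot and root together. The labels call the samples biological replicates 1 to 3 of each genotype. They do not say whether these were separate lines, plants or sowings, so the errors below measure only the spread between these samples.

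Photosystem II splits water and feeds electrons through the cytochrome b6f complex to photosystem I. Plastid genes are transcribed in the chloroplast by a bacterial-type polymerase and by phage-type polymerases, mostly as long transcripts of several genes that are then cut, spliced and trimmed. Plastid messengers carry few stable poly(A) tails, and in plastids such tails mark RNA for decay, whereas the standard Affymetrix labelling that the labels name starts from an oligo(dT) primer. The amount of a plastid transcript and how well it was primed therefore cannot be told apart in these values, nor can fewer green cells and less RNA per cell.

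Each value is a difference from the mean of the 3 vector arrays for that probe set, read as log2 by convention. The values hold no expression level, so the genes cannot be ordered by abundance. Both replicate 3 arrays stood apart from the other 4 for all 9 members. For 7 members they were higher and for petD and psbN they were lower, and this was so in the vector and in the 35S-PaWRKY1 seedlings alike. Over all 22746 probe sets, both replicate 3 arrays lay above the other 4 for 12.5% and below them for 12.1%. The members were chosen with their values by genotype and by replicate number in view, so both are given as a description without a test.

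Among the photosystem II genes, psbA encodes the D1 protein of the reaction centre, which is damaged by light and replaced continually. Its values were -0.19, -0.35 and 0.55 on vector replicates 1, 2 and 3, and -0.36, -0.39 and 0.66 on the 35S-PaWRKY1 arrays of the same numbers. Replicate 3 was the high array in each genotype, and the genotypes overlapped. The mean of its 2 replicate 3 arrays exceeded that of the other 4 by 0.93, which would be 1.9-fold if log2.

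The genes psbE and psbF encode the alpha and beta subunits of cytochrome b559 and lie next to each other in one transcription unit. The vector arrays gave psbE values of -0.46, -0.28 and 0.74, and the 35S-PaWRKY1 arrays gave -0.33, -0.23 and 1.14. For psbF they were -0.46, -0.29 and 0.75 on the vector arrays and -0.32, -0.36 and 0.82 on the 35S-PaWRKY1 arrays. The probe sets of both genes tracked each other closely. The gap of psbE minus psbF was 0.00557, 0.00825 and -0.0138 on the vector arrays. On the 35S-PaWRKY1 arrays it was -0.00504, 0.137 and 0.327, so the widest gap was on replicate 3. Replicate 3 exceeded the other replicates by 1.26 for psbE and 1.14 for psbF.

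The gene psbN, which is needed for photosystem II assembly in tobacco, ran the other way. It is transcribed from the strand opposite to its neighbours psbT and psbH. Its values were 0.51, 0.24 and -0.76 on the vector arrays and 0.31, 0.49 and -0.36 on the 35S-PaWRKY1 arrays. Replicate 3 was the low array in each genotype, at -0.95 against the mean of the others. Measured within each array, the gap of psbH minus psbN was -0.97, -1.12 and 2.09 for the vector and -0.98, -0.93 and 1.98 for 35S-PaWRKY1. It was higher on replicate 3 than on replicates 1 and 2 in both genotypes. Each gene is centred on its vector arrays, so the sign of the gap does not show which transcript is more abundant.

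**Figure D1:**
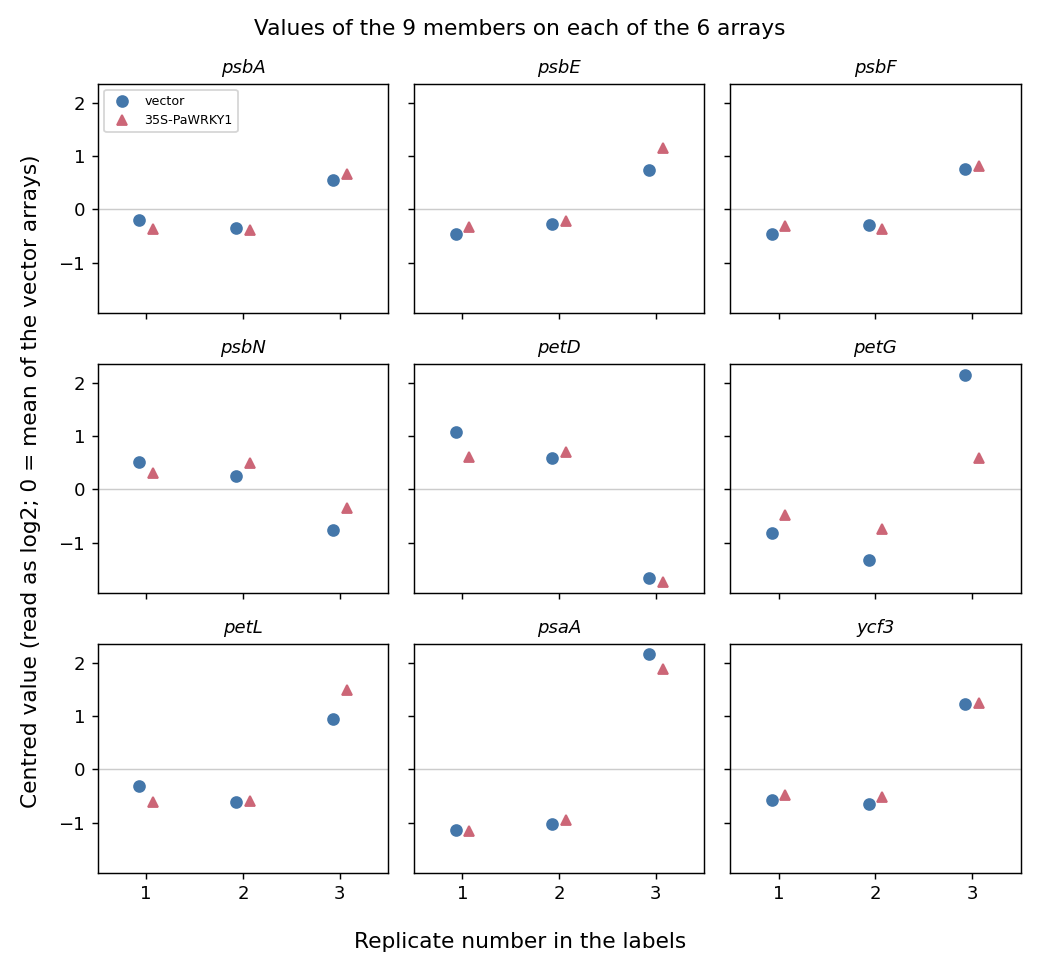
Centred value (read as log2, vertical axis) of each member against the replicate number in the labels (horizontal axis), with 1 point per array, circles for vector and triangles for 35S-PaWRKY1. Replicate 3 lies apart in all 9 panels, upward in 7 of them and downward for psbN and petD, and psaA spans the range from -1.15 to 2.16.

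In the cytochrome b6f complex, petD encodes subunit IV, which together with cytochrome b6 holds the haem-binding core. Its values were 1.07, 0.59 and -1.66 on the vector arrays and 0.61, 0.70 and -1.74 on the 35S-PaWRKY1 arrays. Replicate 3 was at -2.44 against the others (5.44-fold lower if log2), the lowest value of the 69 plastid genes and the 4th lowest of all 22746 probe sets.

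The small subunits encoded by petL and petG, both single membrane helices of the complex, share a transcription unit. petL stood at -0.32, -0.62 and 0.94 on the vector arrays and at -0.61, -0.59 and 1.49 on the 35S-PaWRKY1 arrays. For petG the vector arrays gave -0.82, -1.33 and 2.15, and the 35S-PaWRKY1 arrays gave -0.48, -0.74 and 0.58. Both genes were high on replicate 3, but their replicate 3 arrays were ordered oppositely by genotype, with petL higher in 35S-PaWRKY1 and petG higher in the vector. The gap of petL minus petG was -1.21 on vector replicate 3 and 0.91 on 35S-PaWRKY1 replicate 3. The difference of petG between genotypes at replicate 3, -1.57, was the widest of any member at any replicate number.

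In photosystem I, psaA encodes one of the paired large proteins that bind the reaction-centre chlorophylls. Its values were -1.14, -1.02 and 2.16 on the vector arrays and -1.15, -0.95 and 1.87 on the 35S-PaWRKY1 arrays. The mean of replicate 3 was 3.08 above the other arrays (8.46-fold if log2), the largest value among the members and the 6th highest among all probe sets. The neighbouring gene ycf3, whose product assembles photosystem I and is not part of the finished complex, stood at -0.57, -0.66 and 1.23 on the vector arrays. On the 35S-PaWRKY1 arrays it stood at -0.49, -0.52 and 1.23. The arrays of each number gave nearly the same ycf3 value in both genotypes, within 0.142 of each other at most.

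Genes of opposite direction were set side by side within their transcription units. In the unit psbB-psbT-psbH-petB-petD, replicate 3 exceeded the other arrays by 2.09 for psbH and 1.31 for petB, while petD was at -2.44. The first genes of the unit lay nearer 0, with 0.38 for psbB, a chlorophyll-binding antenna protein of photosystem II, and 0.04 for psbT. The gap of petB minus petD was -1.43, -1.03 and 2.46 on the vector arrays and -0.87, -0.96 and 2.89 on the 35S-PaWRKY1 arrays. It was thus highest on replicate 3 in both genotypes, and by the centring its sign does not rank the genes by abundance. In the unit psaA-psaB-rps14 the values for replicate 3 against the others were 3.08 for psaA, 0.99 for psaB, the partner of psaA, and -0.81 for rps14, a ribosomal protein gene. In the unit of petL and petG, psaJ, a small photosystem I subunit gene, was at 0.10 against 1.75 for petL and 2.21 for petG. The ribosomal protein genes rpl33 and rps18 of that unit were at 1.63 and 1.82. Genes thus differed in sign within the units of petD and psaA, and in size but not sign within that of petL and petG. In their own unit psbE, psbF, psbL and psbJ were all positive, at 1.26, 1.14, 0.77 and 0.91.

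**Figure D2:**
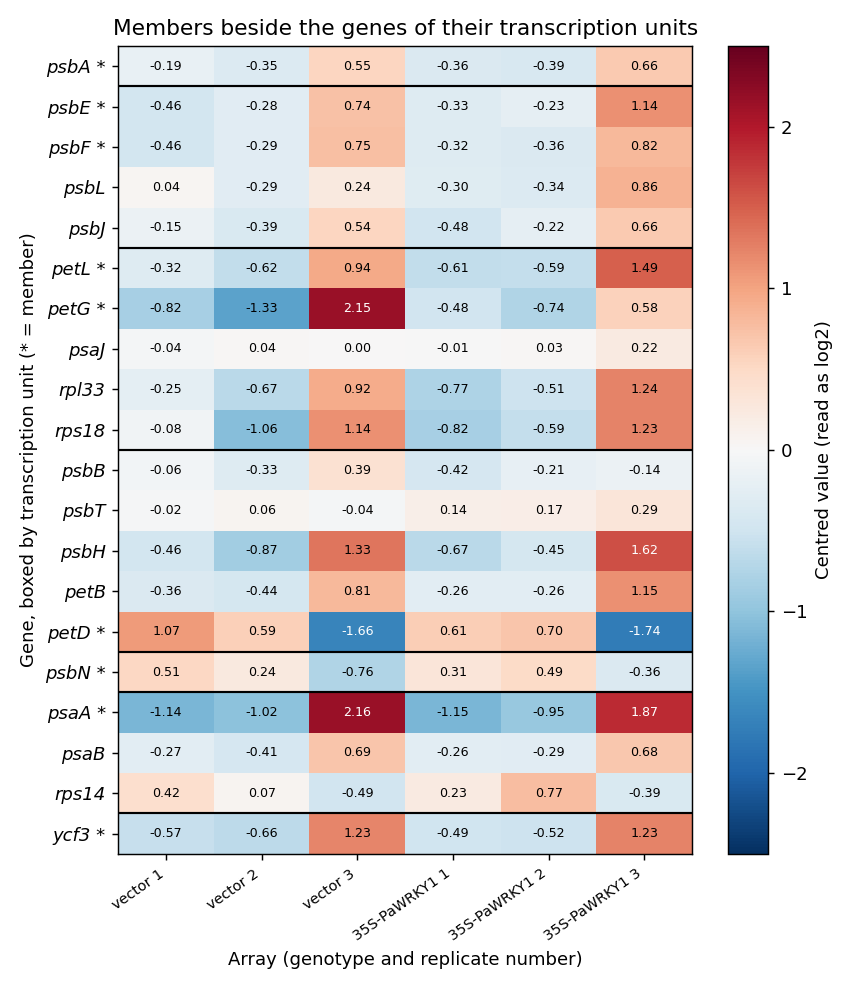
Centred values (read as log2, colour and printed number) of the members, marked with asterisks, and the other genes of their transcription units (rows, boxed by unit) on the 6 arrays (columns). The petD row runs opposite to petB and psbH above it, and the rps14 row runs opposite to psaA and psaB.

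Across the plastid genome, 57 of 69 single-gene probe sets had both replicate 3 arrays above the other 4 and 5 had both below. Besides petD and psbN, those below were rps14 (-0.81), psbD (-0.55), which encodes the D2 partner of the D1 protein, and ndhF (-0.30), of the chloroplast NDH complex. The median for replicate 3 against the others was 1.26 over the 9 members, 1.47 over the 60 other plastid genes and -0.00217 over all probe sets. The members thus spanned nearly the whole range of plastid genes, whose highest value was 3.73 for ndhH.

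**Figure D3:**
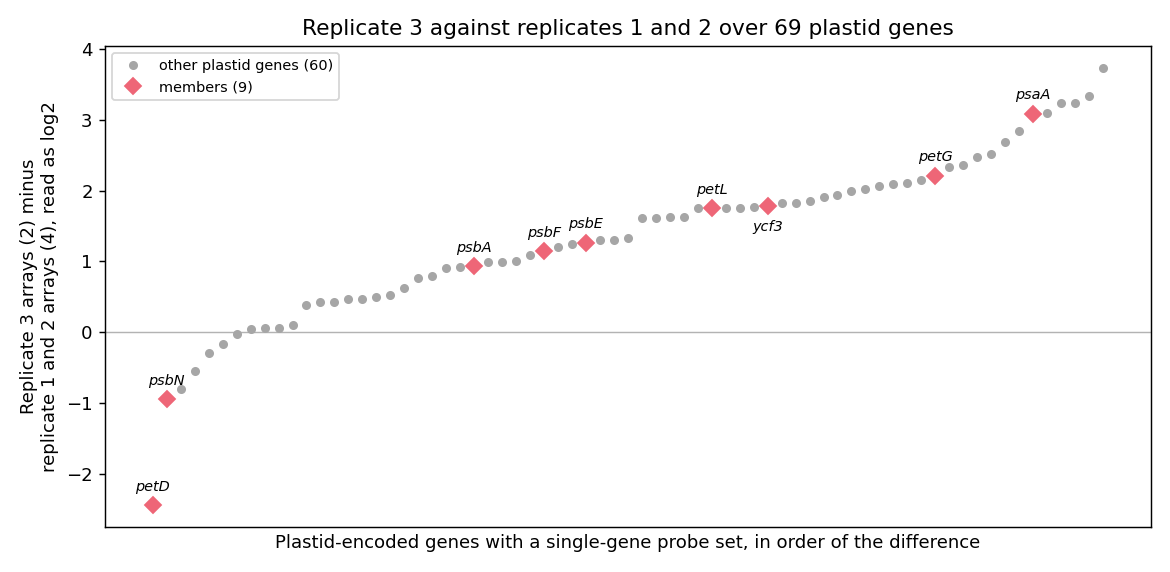
Mean of the 2 replicate 3 arrays minus the mean of the 4 replicate 1 and 2 arrays (read as log2, vertical axis) for 69 plastid genes in rising order (horizontal axis), with members as labelled diamonds. Members reach from petD at -2.44 to psaA at 3.08, and 57 of the 69 genes had both replicate 3 arrays above the other 4.

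Some control probe sets on the arrays moved with the replicate number as well. The 18 probe sets of the hybridization spike-ins, bacterial and phage transcripts added in set amounts, were all lower on both replicate 3 arrays than on the other 4. Their array medians were -0.31 on vector replicate 3 and -0.39 on 35S-PaWRKY1 replicate 3, and 0.06 to 0.28 on the other arrays. With each array centred on its spike-in median, a setting chosen after seeing the data, 7 members stayed above and 2 below on replicate 3. psbN was then at -0.43, petD at -1.92 and psaA at 3.60, while the median of all probe sets shifted to 0.52. The 25S rRNA probe set was at -0.54, -1.12 and 1.67 on the vector arrays and at -1.27, -0.72 and -0.99 on the 35S-PaWRKY1 arrays. Replicate 3 was thus its high array in the vector, as for 7 members, but not in 35S-PaWRKY1. The 5S rRNA probe set was lowest on both replicate 3 arrays, at -0.10 and -0.18, against -0.03 to 0.06 on the others. The gap between 3′ and 5′ probe sets of the reference gene Actin was -0.07 and -0.12 on the replicate 3 arrays and between -0.0015 and 0.21 on the others. That of GAPDH was 0.18, -0.08 and -0.10 on the vector arrays and 0.04, -0.23 and -0.25 on the 35S-PaWRKY1 arrays. Replicate 1 was thus its high array in each genotype. The part of these measures in the pattern of the members was not tested.

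The comparison of 35S-PaWRKY1 with the vector addresses the effect of PaWRKY1 driven by this promoter on transcripts. For the members the genotype differences were small beside the spread over replicate numbers. They ran from -0.22 for petG to 0.20 for psbE, with 5 members above and 4 below the vector. The SE of the fit, in which replicate 3 counts as ordinary spread, was 0.346 to 1.11 (n = 3 per group). The largest difference was that of petG, at -0.22 (SE 0.886), with SDs of 1.88 in the vector and 0.702 in 35S-PaWRKY1. psbE followed at 0.20 (SE 0.466), then psbN at 0.15 (SE 0.362) and petD at -0.14 (SE 0.887). The differences were 0.09 for petL, 0.08 for ycf3, -0.07 for psaA, 0.04 for psbF and -0.03 for psbA. The vector and 35S-PaWRKY1 arrays overlapped for all 9 members, and 14.5% of all probe sets had groups that did not overlap. Both replicate 3 arrays, 1 of each genotype, lay beyond the other 4 for every member. Its groups therefore had to overlap, and this says nothing about genotype.

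Of the 9 members, 0 passed limma at an adjusted p of 0.05, against 0.0308% of all probe sets, and 0 had an unadjusted p under 0.05, against 8.01%. With the replicate number as a block 0 passed as well, against 0.0264% of all probe sets. Since the genotype values were known when the members were chosen, these counts are a description and not evidence about them. The block lowered the SE of every member, to between 0.0885 for ycf3 and 0.412 for petG. For psaA it went from 1.11 to 0.107, a ratio of 10.4. With these errors a difference near or under the SE of a gene cannot be seen, and 1 well above it can be missed too. For psbZ, which is not a member, a difference of 0.36 (SE 0.101) had an adjusted p of 0.417 in limma. Likeness of the genotypes is not shown.

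Set against the array of the same number, 35S-PaWRKY1 psbE was above the vector by 0.13, 0.06 and 0.41 at replicates 1, 2 and 3, and ycf3 by 0.08, 0.14 and 0.01. These were the members with 1 sign at every number. The other 7 had mixed signs, as in psbA (-0.17, -0.04 and 0.11) and petG (0.34, 0.58 and -1.57). Without either of the replicate 3 arrays the difference of petG was 0.46, against -0.22 with them.

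Leaving out 1 replicate 3 array alone moved the genotype differences by more than any of them measured. The difference of psaA was 1.01 without vector replicate 3 and -1.05 without 35S-PaWRKY1 replicate 3. petD gave -0.97 and 0.66 in the same cases, and ycf3 gave 0.69 and -0.50. The sign of all 9 differences thus depended on which of these arrays was in the fit.

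**Figure D4:**
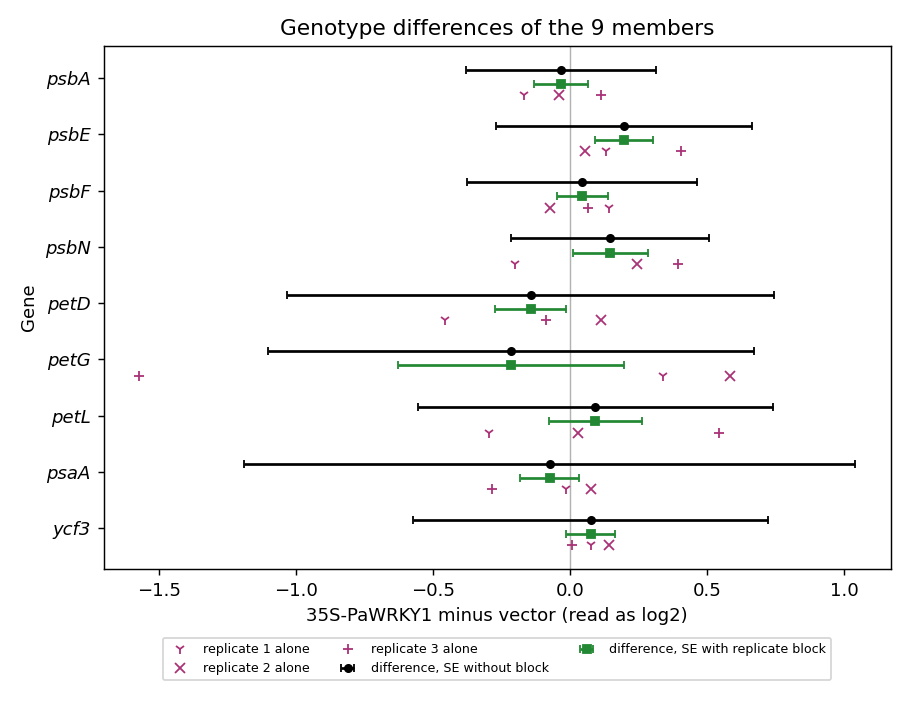
Difference 35S-PaWRKY1 minus vector (read as log2, horizontal axis) for each member, with bars of 1 SE without (circles) and with (squares) the replicate number as a block, and the difference within each replicate number below. Bars without the block cross 0 for all 9 genes, bars with it cross 0 for 6 and not for psbE, psbN and petD, and petG has the widest spread among replicate numbers.

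The spread of each gene over the 6 arrays was split into a part by replicate number, a part by genotype and a remainder. Replicate number held 82.0% of the sum of squares for petG, 90.4% for psbN and 95.5% or more for the other 7, up to 99.7% for psaA and ycf3. Genotype held 0.0656% for psaA to 2.6% for psbE. The remainder was 17.1% for petG and 0.105% for ycf3. Over all probe sets the medians were 42.1% for replicate number, 15.6% for genotype and 27.3% for the remainder, and over the 60 other plastid genes the median for replicate number was 96.4%. Replicate number has more degrees of freedom than genotype, so these shares are compared between genes and not with each other. Without both replicate 3 arrays the median share of replicate number was 31.0% over the members and 22.1% over all probe sets.

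**Figure D5:**
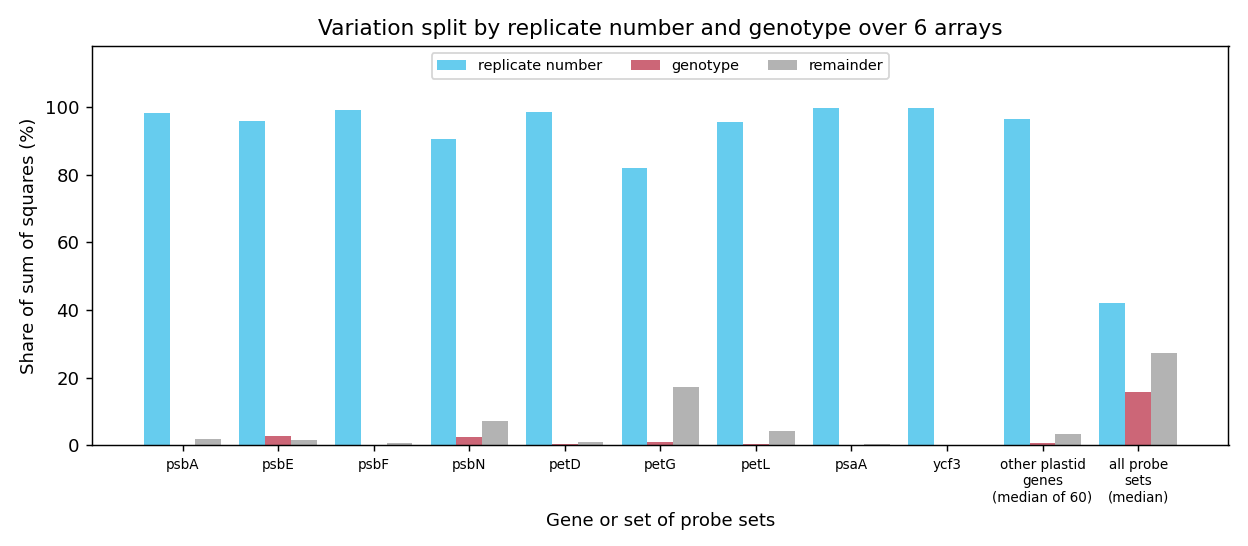
Share of the sum of squares over 6 arrays (percent, vertical axis) by replicate number, genotype and remainder for each member, with the medians over the 60 other plastid genes and over all probe sets. Replicate number holds between 82.0% and 99.7% for members, against a median of 42.1% for all probe sets.

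The other 20 plastid genes of the photosystems, the cytochrome b6f complex and their assembly were all measured. None passed limma in either direction (0 of 20, against 0.0308% of all probe sets), and 1 had an unadjusted p under 0.05, against 8.01% of all probe sets. They lay above the vector in 17 cases and below in 3, while 8986 of all probe sets lay above and 13760 below, with a median of 0.10 against 0.04 for the members and -0.04 for all probe sets. The gene with the smallest p was psbZ, for a small photosystem II subunit. Its values were 0.07, -0.17 and 0.10 on the vector arrays and 0.42, 0.33 and 0.34 on the 35S-PaWRKY1 arrays. The difference was 0.36 (SE 0.101, n = 3 per group; adjusted p 0.417 in limma, and 0.306 with the block). psbT, another small subunit gene, was at 0.20 (SE 0.0852, adjusted p 0.622). psbZ and psbT were the 2 of the 20 genes whose groups did not overlap, against 14.5% of all probe sets. Unlike the members, these 2 genes had 12.6% and 6.27% of their spread by replicate number, and the difference between them and the members was not tested. Of the 40 other plastid-encoded genes measured, 0 passed limma and 0 had an unadjusted p under 0.05, with a median of 0.01.

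The nuclear genes of the photosystems and their antennae that were matched to a probe set had slightly lower means on replicate 3. For most of them the replicate 3 arrays lay among the others. Whether this differs from the members was not tested. Of 38 entries in the list of nuclear subunits, 7 were matched to a probe set, and none of these was a cytochrome b6f subunit. Their values for replicate 3 against the others ran from -0.26 to -0.02, against -2.44 to 3.08 for the members. PSBY, at -0.22, was the only 1 of the 7 with both replicate 3 arrays below the other 4, against 12.1% of all probe sets. Replicate number held 90.5% of the spread of PSBY. In limma 0 of the 7 passed, and all 7 lay above the vector, with a median of 0.09. LHCB4.3, of the photosystem II antenna, was at 0.39 (SE 0.128, adjusted p 0.512), PSAN at 0.17 (SE 0.0984, 0.726), PSBW at 0.12 (SE 0.0994, 0.821) and PSAE-1 at 0.08 (SE 0.0759, 0.846). Nuclear factors of plastid gene expression were matched in 2 of 41 entries, aliases included, and 0 passed. PAC, needed for chloroplast development, was at -0.21 (SE 0.0899, adjusted p 0.622), and LPA1, of photosystem II assembly, at 0.09 (SE 0.121, 0.885).

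Both parts of the seedling were represented by few matched markers, 5 of 20 entries for green shoot and 2 of 21 for root, and as the values are centred they do not show presence. For green shoot the array medians ran from -0.06 to 0.04 over the 6 arrays. Replicate 3 against the others was -0.09 for CLV3, -0.08 for RCA, 0.06 for PRK, 0.15 for SBPASE and 0.37 for SPCH. The 2 root markers were XTH26 and EXP7. Their medians were -0.20, 0.11 and 0.09 on the vector arrays and -0.13, -0.14 and -0.37 on the 35S-PaWRKY1 arrays. Between genotypes XTH26 differed by -0.39 (SE 0.126, adjusted p 0.505 in limma), and its groups did not overlap, as for 14.5% of all probe sets. EXP7 differed by -0.04 (SE 0.137). The part of the markers in the pattern of the members was not tested.

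Likeness of pattern was measured by Pearson's r over the 6 arrays, given without a p since the arrays share replicate numbers. Among plastid genes outside the members, the most like psaA was ycf4 (0.998), the most like ycf3 was rpoC1 (0.999) and the most like psbA was rpl22 (0.996). For psbE and petL it was ndhJ (0.992 and 0.993), for psbF rpoB (0.995) and for petG rpl14 (0.96). The members of opposite direction were most like other plastid genes that were low on replicate 3, petD like psbD (0.953) and psbN like rps14 (0.922). Replicate number held 82.0% to 99.7% of the spread of the members, so a high r largely follows from a like direction on replicate 3. These matches in direction were thus given in advance.

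Among 1482 nuclear probe sets with a gene name, CRR28 was the most like psbA (0.972), psbE (0.99), psbF (0.993) and petL (0.974). It stood 0.80 higher on replicate 3 than on the other arrays, which is less than the 0.93 to 1.75 of these 4 genes. NERD was the most like psaA (0.996), NIH the most like ycf3 (0.993), iqd32 the most like petG (0.972), LSM1B the most like petD (0.986) and APG8A the most like psbN (0.997). Pearson's r does not measure the size of a shift. Replicate 3 against the others was 1.34 for NERD and 0.45 for NIH, against 3.08 for psaA and 1.79 for ycf3. It was 0.21 for iqd32, against 2.21 for petG. LSM1B was at -0.38 against -2.44 for petD, and APG8A at -0.21 against -0.95 for psbN. Each r given is the highest of 1482 values over 6 arrays. The top 5% of the named nuclear probe sets had r above 0.79 for psbE, the lowest such limit among the members, and above 0.854 for psaA, the highest.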

How the data were processed

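Per the labels' protocols, biotinylated cRNA was made from the seedlings' total RNA, and 6 Affymetrix arrays were hybridised. The deposited values were taken as log2 values by convention. The submitters' processing notes list MAS5 and RMA without version or role. In the file the 3 vector arrays of every probe set average 0 (largest absolute mean 1.27e-06), and array medians ran from -0.0464 to 0.0137. The log base, the direction and how arrays were normalized: each is not given in the sources used here. Higher was taken as more transcript.

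Of 22810 probe sets, 64 Affymetrix controls were left out of tests. Gene names come from the platform annotation held by GEO, partly outdated (13513 probe sets with 1 gene, 503 with several, 8730 with none given), with symbols updated through RefSeq's TAIR10.1 table. No probe set with several genes names a member. Differences were fitted with limma 3.58.1 in R 4.3.3 over 22746 probe sets (two-sided, Benjamini-Hochberg, adjusted p under 0.05), and the fit was tested on simulated data. Plots used Python 3.11.15 and matplotlib 3.10.9. The number of arrays limits the precision.

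Members and lists were chosen with earlier results of these data known. Genes named were all members, genes of the lists past the threshold and up to 4 of each nuclear list by smallest p. For each member the nuclear and plastid gene of highest r were named too. Of the plastid genes of the same complexes, those that bear on a member are named, and psbZ and psbT by smallest p. Other plastid-encoded genes were named by transcription unit, replicate 3 value or r, not by smallest p. All matched markers are named, and PSBY is named for its replicate 3 values. Array controls and spike-ins, and the plastid genes low on replicate 3, were chosen after their values were seen.

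Arrays of the same number, each taken as a deviation from its genotype's mean, correlated over probe sets by 0.314, 0.194 and 0.453, and by 0.3, 0.151 and 0.404 without the 69 plastid probe sets. Each exceeds 0.1, the threshold set beforehand. Arrays of different numbers were not compared, and deviations within a genotype cancel out. A pattern shared by the replicate 3 arrays alone can therefore raise all of these values. They cannot show whether the numbers pair the samples, and the labels do not state a pairing. The fit without the block stayed the main one, and the blocked fit is an alternative. Alternatives were array weights, median centring, equal quantiles, a block by replicate number, each array left out and both replicate 3 arrays left out.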

Additional observations from a re-analysis of the deposited data

How the results depend on the processing

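The replicate number as a block changed no call for the members or the gene lists (0 in all). Over all probe sets it gave 6 calls in place of 7, of which 3 were shared. That count was 11 with array weights, 0 after normalizing to equal quantiles (1022 at an unadjusted p under 0.05), 0 without both replicate 3 arrays (1914), 1 at an adjusted p under 0.01 and 0 to 1 with single arrays left out. The 0 came without 35S-PaWRKY1 replicate 2 (1062). The cause was not tested. Over the 9 members, the median genotype difference was 0.04 and ran from -0.38 to 0.56 with single arrays left out. Of 99 single differences under 11 alternatives, 32 changed sign. The block, 1 of the 11, leaves each difference as it was, so the 99 include differences that could not change sign. None of the members passed limma under any of the alternatives. The median share of replicate number was 97.4% to 99.2% without replicate 1 or 2 of both groups and 31.0% without replicate 3. On replicate 3, 7 members stayed above and 2 below with equal quantiles, median centring and spike-in centring.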
